A study of Mus musculus with 15 samples.

Results

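Amino acid transporters are the membrane proteins through which a T cell takes up the amino acids that it burns, builds into protein and senses through mTORC1. The 9 transporter genes described here are Slc7a5, Slc3a2, Slc7a6, Slc1a5, Slc38a1, Slc38a2, Slc7a1, Slc43a2 and Slc38a9, chosen by gene symbol from the 55421 genes counted, of which 39155 had a read in at least 1 sample. All 9 had reads in every sample, from a lowest count of 74 to a highest of 7559, and all 9 passed the filter on low counts in every comparison.

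The data are bulk RNA-seq of CD4+ T cells from the T cell transfer model of colitis. Naive CD4+ T cells of Prkaa1 fl/fl mice without Cre (WT) or of Prkaa1 fl/fl mice with CD4-Cre (KO) were transferred into Rag2-/- mice, which have no T or B cells of their own, and after 6 weeks the T cells were recovered by sorting, out of mesenteric lymph nodes (mLN) and spleen. The strain was C57BL/6, mice were used at 6 to 8 weeks of age per the methods, and donors of both genotypes were littermates. CD4-Cre is active from the thymus on, so the floxed alleles of Prkaa1, which encodes the AMPKα1 subunit of the energy sensor AMPK, were already recombined in the donor cells of the KO groups. Each group had 4 samples except WT mLN, with 3, as the authors had left out 1 sample there for its quality. The samples came from 1 experiment, and the labels number them without saying which mouse each came from.

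System L exchangers are pairs of a light chain, which carries the amino acid, and the heavy chain 4F2hc (CD98, the product of Slc3a2), which brings the light chain to the plasma membrane. LAT1 (Slc7a5) exchanges large neutral amino acids such as leucine for intracellular glutamine, and glutamine itself enters through ASCT2 (Slc1a5) and the sodium-coupled carriers SNAT1 (Slc38a1) and SNAT2 (Slc38a2). In T cells these systems are known to be induced by antigen receptor signalling, and Myc and ATF4 are known activators of several of the genes. AMPK restrains mTORC1, which is in turn activated by amino acids at the lysosome, where SLC38A9 reports arginine.

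Reads on genes came to 9363940 to 11283439 per sample, and 58.4% to 63.4% of the uniquely aligned reads lay on no gene. Levels are given as counts per 1000000 reads on genes (CPM) after TMM scaling, where 1 CPM is about 10 reads. Prkaa1, the deleted gene, had a level in KO cells of 20.1 ± 1.16 CPM in spleen and 28.0 ± 5.34 CPM in mLN (SD, n = 4 each). The WT levels of Prkaa1 were 50.4 ± 3.24 CPM (SD, n = 4) and 54.3 ± 5.57 CPM (SD, n = 3), with no overlap in either organ. Counts are per whole gene and do not show which exons the remaining reads lay on. Within KO cells Prkaa1 was higher in mLN than in spleen (log2 0.46, edgeR adjusted p = 0.0361). The 8 T cell markers (Cd3e, Cd3d, Cd3g, Cd4, Trac, Lck, Cd5 and Cd28) summed to 6726 to 9031 CPM in the 15 samples, against 51.7 to 553 CPM for 7 B cell markers, 108 to 628 CPM for 11 myeloid markers and 19.2 to 1933 CPM for 8 erythroid markers. The erythroid sums stood apart in 3 WT samples: 1933 and 906 CPM in WT spleen replicates 3 and 4 and 821 CPM in WT mLN replicate 4, against at most 128 CPM in the other 12 samples. In bulk samples fewer cells of a type cannot be told apart from less RNA per cell.

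The levels of the 9 genes spread widely. To compare genes, CPM were divided by the length of the union of a gene's exons, which gives CPM per kb. On this scale Slc1a5 was the most abundant in every group, at 143 ± 5.04 CPM per kb (SD, n = 4) in WT spleen, followed by Slc3a2 at 41.9 ± 5.47 CPM per kb (SD, n = 4). Both genes were separated from the next one in all 4 groups, with no overlap of their samples. Slc38a2, Slc7a6 and Slc38a1 followed at 13.6 ± 1.54, 13.0 ± 1.28 and 12.7 ± 0.492 CPM per kb (SD, n = 4) in WT spleen. The ranges of these 3 genes overlapped there, and in mLN Slc7a6 came first among them. Below them came Slc43a2 at 5.30 ± 0.503, Slc7a1 at 4.29 ± 0.203, Slc7a5 at 2.55 ± 0.639 and Slc38a9 at 2.09 ± 0.124 CPM per kb (SD, n = 4) in WT spleen, where only the last 2 overlapped.

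**Figure D1:**
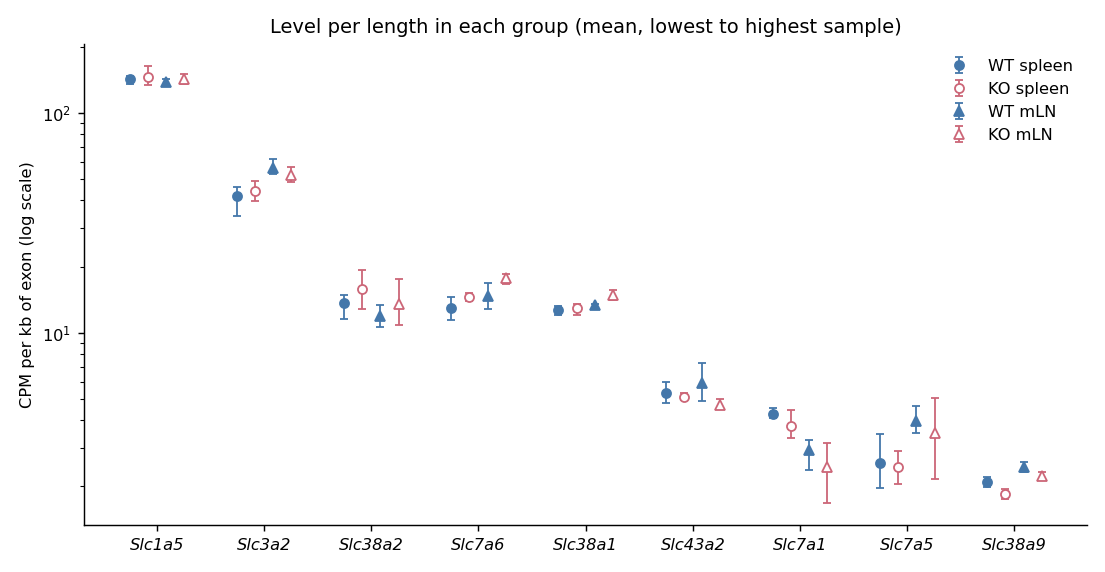
Level of each gene per length in the 4 groups, as CPM per kb of exon on a log axis; points are group means and lines run from the lowest to the highest sample. Slc1a5 (139 to 145 CPM per kb) and Slc3a2 (41.9 to 56.0 CPM per kb) stand above the others in all groups. Slc7a5 and Slc7a1 change places between spleen and mLN on this scale, but not by the longest coding transcript.

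By exon union length, the order of the low genes differed between the organs: Slc7a1 stood above Slc7a5 in spleen and below it in mLN, in both genotypes. In WT mLN Slc7a5 was at 3.96 ± 0.614 and Slc7a1 at 2.94 ± 0.493 CPM per kb (SD, n = 3), with no overlap, whereas in KO mLN the ranges of Slc7a5, Slc7a1 and Slc38a9 overlapped. The choice of length matters for genes with long or alternative 3' ends. Divided by the longest coding transcript instead, Slc38a1 ranked at place 3 in every group and Slc7a5 last. Slc7a1 then stood above Slc7a5 in mLN too, at 4.715 against 4.171 CPM per kb in WT and 3.933 against 3.695 in KO cells. The change of places thus depends on the length used.

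Slc3a2 (ENSMUSG00000010095, GRCm38 chr19:8706882-8723369, minus strand) encodes the heavy chain that the light chains share. Its CPM were 149, 161, 162 and 120 in WT spleen (replicates 1 to 4) and 141, 144, 166 and 172 in KO spleen. In mLN they were 186, 218 and 189 in WT (replicates 1, 2 and 4) and 187, 201, 180 and 171 in KO. All 3 WT mLN samples lay above all 4 WT spleen samples, while the WT and KO samples of each organ lay among one another and the lowest KO mLN sample fell just below the highest KO spleen sample. Slc3a2 rose in mLN against spleen in WT cells by 0.41 on the log2 scale (SE 0.12, edgeR adjusted p = 0.035), which is 1.33-fold with a 95% interval of 1.11 to 1.59. In KO cells the difference was 1.17-fold (interval 1.03 to 1.33, edgeR adjusted p = 0.0697) and was not called.

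Slc7a5 (ENSMUSG00000040010, GRCm38 chr8:121881150-121907694, minus strand) encodes LAT1, the leucine exchanger that activated T cells depend on. It was the gene with the fewest reads, 74 to 202 per sample, with CPM of 9.05, 12.8, 7.28 and 8.67 in WT spleen and 7.63, 10.1, 10.7 and 8.05 in KO spleen. In mLN the CPM were 13.8, 17.2 and 12.9 in WT cells and 18.8, 16.5, 8.03 and 8.62 in KO. The WT mLN samples lay above every spleen sample of either genotype, whereas the KO mLN samples fell into a higher and a lower pair, replicates 1 and 2 above all spleen samples and replicates 3 and 4 among them. The mLN to spleen difference was 0.63 in WT (log2, SE 0.22, edgeR adjusted p = 0.0699) and 0.49 in KO (SE 0.28, edgeR adjusted p = 0.228), and neither was called. In WT cells, same-numbered spleen and mLN samples deviated together, and with the replicate number as a block the difference was 0.53 with an edgeR adjusted p of 0.044. WT spleen replicate 3, which has no mLN sample of its number, adds nothing to that value.

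Slc7a6 (ENSMUSG00000031904, GRCm38 chr8:106168857-106198706, plus strand) encodes y+LAT2, another light chain of 4F2hc, which exchanges cationic for neutral amino acids. It was at 59.7, 66.6, 59.2 and 52.3 CPM in WT spleen and at 63.7, 69.5, 64.8 and 69.2 CPM in KO spleen. In mLN it was at 58.5, 77.3 and 66.6 CPM in WT and at 80.5, 76.5, 84.6 and 83.2 CPM in KO. The 4 KO mLN samples lay above all 4 KO spleen samples, and 3 of the 4 lay above every WT mLN sample. Slc7a6 rose in mLN against spleen in KO cells by 0.26 (log2, SE 0.07, edgeR adjusted p = 0.0233), or 1.20-fold with an interval of 1.07 to 1.34. The corresponding WT difference was 0.18 (SE 0.12, edgeR adjusted p = 0.334).

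Slc7a1 (ENSMUSG00000041313, GRCm38 chr5:148327410-148399904, minus strand) encodes CAT1, the uniporter for arginine and lysine. Of the 9 genes it alone was called between the organs in both genotypes, and it was lower in mLN in each. Its CPM were 47.2, 52.4, 48.0 and 50.1 in WT spleen and 51.5, 40.8, 43.2 and 38.4 in KO spleen. In mLN its CPM were 36.9, 27.3 and 37.3 in WT cells and 19.4, 25.5, 31.8 and 36.2 in KO. Within each genotype the mLN samples lay below all spleen samples, and the KO mLN samples were spread more widely than those of any other group. Slc7a1 fell by 0.56 on the log2 scale in WT cells (SE 0.12, edgeR adjusted p = 0.0127; 0.680-fold, interval 0.563 to 0.822) and by 0.64 in KO cells (SE 0.18, edgeR adjusted p = 0.0204; 0.641-fold, interval 0.490 to 0.838).

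Slc7a1 and Slc7a6 were called in opposite directions between the organs in KO cells, and for both a promoter sequence is available from RefSeq (GRCm38.p6). The 250 bases before the outermost start site are shown 5′ to 3′ on the gene's strand, with capitals for a GC box (GGGCGG on either strand), a common element of promoters without a TATA box. The Slc7a1 sequence lies at chr5:148399905-148400154 on the minus strand and the Slc7a6 sequence at chr8:106168604-106168853 on the plus strand.
Slc7a1: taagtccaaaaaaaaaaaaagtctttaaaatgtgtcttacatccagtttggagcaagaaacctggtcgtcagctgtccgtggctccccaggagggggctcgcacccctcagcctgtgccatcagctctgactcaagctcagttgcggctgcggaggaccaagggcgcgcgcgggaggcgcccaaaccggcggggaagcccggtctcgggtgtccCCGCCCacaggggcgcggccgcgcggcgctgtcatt
Slc7a6: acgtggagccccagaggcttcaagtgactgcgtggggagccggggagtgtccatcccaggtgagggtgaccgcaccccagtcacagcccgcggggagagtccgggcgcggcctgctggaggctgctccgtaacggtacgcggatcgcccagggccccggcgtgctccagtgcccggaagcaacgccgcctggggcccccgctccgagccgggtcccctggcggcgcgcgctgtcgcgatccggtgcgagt
The Slc7a1 sequence holds 1 GC box and the Slc7a6 sequence none upstream of the start. At the other start of each gene this turns around, with 0 upstream for Slc7a1 and 1 for Slc7a6, so it is no contrast between the genes. Windows of 300 bases (250 before and 50 after a start) were found for 6 of the 9 genes, 9 windows in all, for Slc7a1, Slc7a6, Slc3a2, Slc38a2, Slc38a9 and Slc43a2. A GC box was in 8 of the 9 windows, beside 35.7% of all 32851 windows, and in at least 1 window of each of the 6 genes. The windows of Slc7a6 overlap and hold the same box. The 9 windows had 51.7% to 76.7% G and C, and all windows were not matched to them for this, so the shares do not measure an enrichment. The E-box CACGTG, which Myc and Max can bind, was in 0 of the 9, beside 7.15% of all windows, and TGATGCAA, an element that C/EBP and ATF proteins can bind, was in 0 of the 9, beside 0.89%. These counts describe letters in short windows and do not show whether a factor binds.

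**Figure D2:**
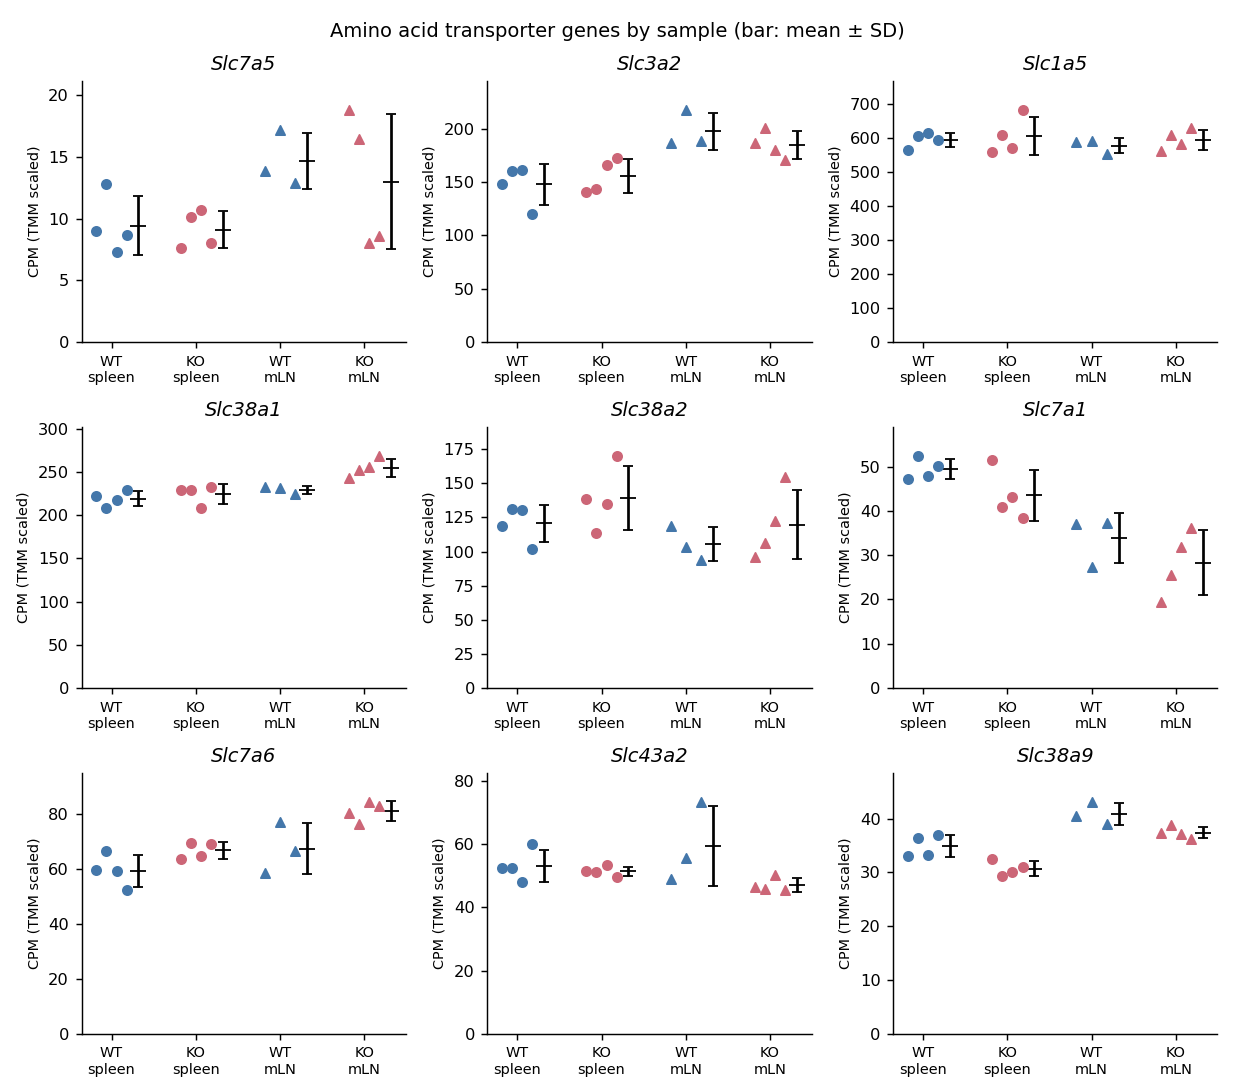
CPM of the 9 genes in each sample (circles, spleen; triangles, mLN; blue, WT; red, KO) with the mean and SD of each group; the y axes start at 0. Slc7a1 is lower in mLN than in spleen in both genotypes, Slc3a2 is higher in WT mLN than in WT spleen, and the KO mLN samples of Slc7a5 lie between 8.03 and 18.8 CPM.

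Slc1a5 (ENSMUSG00000001918, GRCm38 chr7:16781340-16798274, plus strand) encodes ASCT2, the sodium-dependent exchanger for glutamine and other small neutral amino acids. It varied least of the 9. Its CPM were 567, 606, 616 and 596 in WT spleen and 561, 610, 572 and 684 in KO spleen. In mLN they were 588, 594 and 554 in WT cells and 563, 610, 583 and 630 in KO. All 4 groups overlapped, and the KO to WT difference was 0.02 in spleen (log2, interval -0.14 to 0.19, edgeR adjusted p = 0.892) and 0.04 in mLN (interval -0.12 to 0.21, edgeR adjusted p = 0.828), so that fold changes outside 0.907 to 1.15 lay outside both intervals. The mean absolute deviation of its log2 CPM from its own average over the groups was 0.058 over the 15 samples, and 0.2% of the 15438 genes compared deviated less. Abundant genes carry less counting error, and among the 177 genes at least as abundant as Slc1a5 the share was 1.7%.

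Slc38a1 (ENSMUSG00000023169, GRCm38 chr15:96571418-96642913, minus strand) encodes SNAT1, a sodium-coupled importer of glutamine and alanine. Its CPM were 222, 208, 217 and 229 in WT spleen and 229, 228, 208 and 232 in KO spleen. In mLN they were 232, 232 and 224 in WT cells and 243, 252, 256 and 269 in KO. The 4 KO mLN samples were the highest of the 15 and lay above the WT mLN and the KO spleen samples without overlap. The differences were small, at 1.11-fold for KO against WT in mLN (interval 0.989 to 1.25, edgeR adjusted p = 0.373) and 1.12-fold for mLN against spleen in KO cells (interval 1.02 to 1.23, edgeR adjusted p = 0.076), and neither was called.

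Slc38a2 (ENSMUSG00000022462, GRCm38 chr15:96687392-96699730, minus strand) lies next to Slc38a1 in the same orientation and encodes SNAT2, whose level is known to rise when amino acids are scarce. Its CPM were 118, 132, 130 and 102 in WT spleen and 138, 114, 135 and 170 in KO spleen. In mLN they were 119, 103 and 93.9 in WT cells and 96.0, 107, 122 and 155 in KO. The groups overlapped in all 4 comparisons. The KO to WT differences of Slc38a2 were 1.15-fold in spleen (interval 0.957 to 1.39, edgeR adjusted p = 0.371) and 1.14-fold in mLN (interval 0.898 to 1.44, edgeR adjusted p = 0.621).

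Slc43a2 (ENSMUSG00000038178, GRCm38 chr11:75531694-75577575, plus strand) encodes LAT4, a uniporter for branched-chain amino acids, phenylalanine and methionine. It was between 48.1 and 60.2 CPM in the 8 spleen samples of both genotypes. In mLN its CPM were 48.9, 55.6 and 73.5 in WT cells and 46.5, 45.7, 50.3 and 45.4 in KO. The highest value of the gene was that of WT mLN replicate 4, which is also 1 of the 3 samples with high erythroid sums. Slc43a2 was 0.792-fold in KO against WT mLN (interval 0.637 to 0.985, edgeR adjusted p = 0.288), and without that WT sample the log2 difference went from -0.34 to -0.16 (adjusted p = 0.753). Its exons share 922 bases with the antisense gene Gm45606, which had up to 336 reads, and the counting is not stated to use strand, so the level is uncertain.

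Slc38a9 (ENSMUSG00000047789, GRCm38 chr13:112660751-112738749, plus strand) encodes a lysosomal transporter and arginine sensor of mTORC1. Its CPM were 33.1, 36.5, 33.3 and 37.0 in WT spleen and 32.6, 29.2, 30.1 and 31.0 in KO spleen. In mLN they were 40.5, 43.2 and 39.1 in WT cells and 37.3, 38.7, 37.2 and 36.3 in KO. In each organ the KO samples all lay below the WT samples, and in each genotype every mLN sample lay above every spleen sample, but none of these differences was called. Slc38a9 was 0.877-fold in KO against WT spleen (interval 0.777 to 0.991, edgeR adjusted p = 0.215), 0.913-fold in mLN (interval 0.767 to 1.09, adjusted p = 0.642), and in mLN against spleen 1.16-fold in WT (log2 interval 0.001 to 0.433, adjusted p = 0.143) and 1.20-fold in KO cells (interval 1.05 to 1.38, adjusted p = 0.0527). Its exons share 182 bases with the antisense gene Gm47827, which had at most 14 reads.

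Whether the loss of AMPKα1 changed the transporter genes was tested in each organ. In spleen 0 of the 9 genes passed an edgeR adjusted p of 0.05, where 1.30% of the 14254 genes tested did. At an unadjusted p under 0.05 there was 1 (Slc38a9), beside 20.5% of the genes tested, and DESeq2 called 0. The groups of 1 gene (Slc38a9) did not overlap, beside 12.0% of the genes tested, and the median log2 difference was 0.02, beside -0.004 over all genes tested. In mLN 0 of the 9 passed, where 0.641% of the 14359 genes tested did, with 2 at an unadjusted p under 0.05 (Slc7a6 at 1.20-fold and Slc43a2), beside 15.7% of the genes tested, and 0 called by DESeq2. The groups of 2 genes (Slc38a1 and Slc38a9) did not overlap in mLN, beside 14.0% of the genes tested, and the median was -0.10, beside -0.004 over all genes tested. The estimated differences stayed within 0.21 in spleen and 0.34 in mLN on the log2 scale. At 0.716 to 1.31 in spleen and 0.554 to 1.41 in mLN, the intervals of Slc7a5 were the widest of the 9 and hold changes that these data could not show.

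**Figure D3:**
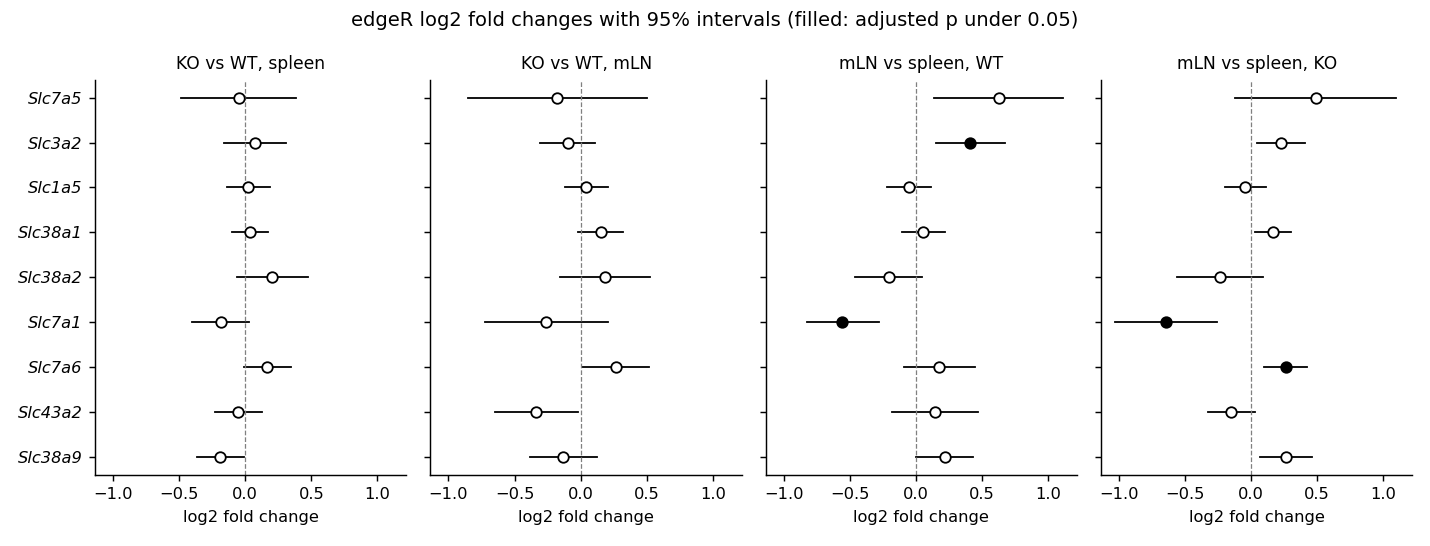
log2 fold change of each gene in the 4 comparisons of 2 groups (circles, filled where the edgeR adjusted p is under 0.05) with 95% intervals. The calls are Slc3a2 and Slc7a1 in WT and Slc7a1 and Slc7a6 in KO cells, all for mLN against spleen. The fits shown do not use the replicate number.

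Between the organs, 2 of the 9 genes were called in WT cells, Slc3a2 higher and Slc7a1 lower, and 2 in KO cells, Slc7a6 higher and Slc7a1 lower. These 22.2% in either genotype stood beside 20.5% of the 14515 genes tested in WT cells (9.70% higher and 10.8% lower) and 25.3% of the 14240 tested in KO cells (11.4% higher and 13.9% lower), so the transporters were called about as often as genes in general. The median log2 difference over the 9 was 0.15 in WT, beside 0.00 over all genes, and 0.16 in KO cells, beside 0.01. The organ groups did not overlap for 4 of the 9 genes in WT cells (Slc7a5, Slc3a2, Slc7a1 and Slc38a9), beside 31.9% of the genes tested, and for 4 in KO cells (Slc38a1, Slc7a1, Slc7a6 and Slc38a9), beside 28.8%. The organ comparisons use the same samples as the genotype comparisons, and these fits do not use the replicate number. With it as a block, Slc7a5 was also called in WT cells (edgeR adjusted p = 0.044). In that fit 4351 of the 14515 genes tested were called, against 2980 without the block. Whether the organ difference differed between the genotypes was tested by the interaction in edgeR, where 0 of the 9 were called, beside 0% of 15438 genes, 0 had an unadjusted p under 0.05, beside 4.22% of these genes, and DESeq2 called 0. So neither Slc3a2, called in WT cells, nor Slc7a6, called in KO cells, was shown to differ between genotypes: the KO organ difference was 0.887 times that of WT for Slc3a2 (interval 0.716 to 1.10) and 1.07 times for Slc7a6 (interval 0.879 to 1.30).

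The organs also differed in markers of other cells. B cell markers summed to 51.7 to 187 CPM in WT spleen and 182 to 553 CPM in WT mLN, and to 53.4 to 144 CPM in KO spleen and 209 to 310 CPM in KO mLN, of which most was Ighm. Myeloid markers summed to 222 to 628 CPM in WT spleen and 113 to 262 CPM in WT mLN, and to 196 to 611 CPM in KO spleen and 108 to 125 CPM in KO mLN. The 2 markers of CD8+ T cells summed to 1.57 to 4.97 CPM in spleen and to 7.33 to 11.5 CPM in WT and 19.6 to 28.4 CPM in KO mLN. Of these, Cd8a averaged 4.85 CPM in WT and 18.6 CPM in KO mLN, while Cd8b1 averaged 4.54 and 4.34 CPM. The 8 stromal and endothelial markers summed to 69.5 to 109 CPM in spleen and 105 to 135 CPM in mLN. Most of this was Pecam1, with means of 97.6 and 78.3 CPM in WT and KO spleen and 118 and 103 CPM in WT and KO mLN. The highest group mean among the others was 5.96 CPM (Myh11 in KO mLN). The part of other cells in the differences of the transporter genes was not tested.

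The calls of single genes depended on few samples. Slc7a1 was called in WT cells whichever sample was left out. Slc3a2 lost its call in WT cells without spleen replicate 1 or 2 or any 1 of the mLN replicates, with adjusted p-values up to 0.119. In KO cells Slc7a1 lost its call without spleen replicate 1 (adjusted p = 0.0697) or mLN replicate 2 (adjusted p = 0.0549), and Slc7a6 without spleen replicate 1 (adjusted p = 0.0709) or 3 (adjusted p = 0.067). Slc7a5 gained a call in WT cells without spleen replicate 2 (adjusted p = 0.0339), and Slc3a2 and Slc38a9 gained one in KO cells without mLN replicate 4 (adjusted p = 0.0449 and 0.0495). Without the filter on low counts Slc7a5 gained a call in WT cells (adjusted p = 0.0467) and Slc7a6 lost its call in KO cells (adjusted p = 0.128). In KO cells Slc38a9 gained a call with RLE scaling (adjusted p = 0.0494) and with all 15 samples in 1 fit (adjusted p = 0.017), and Slc38a1 with the latter (adjusted p = 0.0327).

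Ratios of counts within a sample do not depend on scaling to depth, and 3 were described without a test. The log2 ratio of Slc7a5 to its partner Slc3a2 was -3.99 ± 0.36 in WT spleen, -4.10 ± 0.27 in KO spleen, -3.76 ± 0.11 in WT mLN and -3.93 ± 0.56 in KO mLN (SD, n = 4, 4, 3 and 4). The groups overlapped, and the spread in KO mLN, from -4.49 to -3.31, came from the 2 pairs of samples seen in Slc7a5 itself. The log2 ratio of the light chains Slc7a6 to Slc7a5 was 2.08 to 2.37 in WT mLN, below all KO spleen samples (2.598 to 3.104) and below all 4 WT spleen samples (2.38 to 3.02), and 2.10, 2.21, 3.40 and 3.27 in KO mLN replicates 1 to 4. The log2 ratio of Slc38a1 to Slc38a2 averaged 0.87 (SD 0.22, n = 4) in WT spleen, 0.70 (SD 0.24, n = 4) in KO spleen, 1.13 (SD 0.15, n = 3) in WT mLN and 1.11 (SD 0.24, n = 4) in KO mLN, with overlap between the groups.

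**Figure D4:**
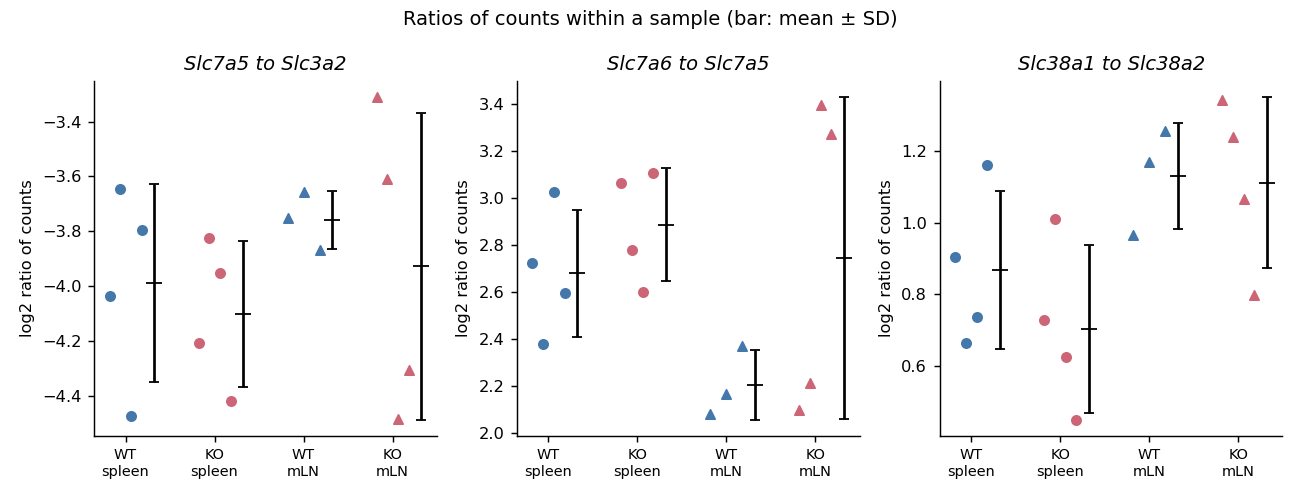
log2 ratio of counts of 2 transporter genes within each sample (circles, spleen; triangles, mLN; blue, WT; red, KO), with the mean and SD of each group; the y axes do not start at 0. In KO mLN the ratio of Slc7a6 to Slc7a5 runs from 2.10 to 3.40, wider than in the other groups.

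The genes whose profile over the 15 samples lay nearest to each transporter were found by the mean absolute difference of centred log2 CPM. The nearest gene was Hist1h1c for Slc7a5 (0.182), Gm17638 for Slc3a2 (0.057), Psme3 for Slc1a5 (0.051), Hnrnpf for Slc38a1 (0.050), Fam98a for Slc38a2 (0.096), Smim10l1 for Slc7a1 (0.114), Sumo3 for Slc7a6 (0.076), Ap1s1 for Slc43a2 (0.074) and C1d for Slc38a9 (0.051). For no transporter was another of the 9 among its 3 nearest genes. Slc3a2 was the nearest of the 9 to Slc7a5, at rank 519 of 15437 genes, and Slc38a9 was the nearest of the 9 to Slc3a2, at rank 382. Slc7a1 stood farthest from the rest, with Slc38a2 at rank 3012 as its nearest.

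Among 44 other genes of amino acid transporters and their relatives, 22 or fewer passed the filter on low counts in each comparison. Between genotypes edgeR called 0 in either organ, beside 1.30% of all genes tested in spleen and 0.641% in mLN. At an unadjusted p under 0.05 there were 6 of 19 tested in spleen, beside 20.5% of all genes, and 5 of 19 in mLN, beside 15.7%. DESeq2 called 2 in each organ (Slc15a4 and Slc6a9 in spleen, Slc43a1 and Slc7a10 in mLN). Over all genes it called 784 in spleen and 563 in mLN, more than edgeR, so the edgeR shares are no background for its calls. The smallest p in spleen was that of Slc15a4, a lysosomal carrier of histidine and peptides, at 0.63 (log2, adjusted p = 0.0802). Between organs in WT cells 0 of the 21 tested were higher and 2 lower in mLN, beside 9.70% and 10.8% of all genes tested. The 2 were Slc38a10, a relative of the SNATs, at -0.65 (log2, SE 0.10, adjusted p = 0.00253), and Slc16a10 (TAT1), a uniporter of aromatic amino acids, at -2.75 (SE 0.56, adjusted p = 0.00956). In KO cells 3 of the 20 tested were higher and 1 lower in mLN, beside 11.4% and 13.9% of all genes tested. Slc43a1 (LAT3), the closest relative of Slc43a2, went from 7.86 ± 2.78 to 21.4 ± 1.37 CPM (SD, n = 4; log2 1.42, adjusted p = 0.000879), Slc43a3, which carries purine bases, rose by 0.87 (adjusted p = 0.00177) and Slc38a10 was at -0.49 (adjusted p = 0.00366). Of these, Slc43a1 differed between KO and WT mLN by 1.57 (log2, SE 0.32) with an adjusted p of 0.0634, which was not called.

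Between the genotypes, the lists that surround the transporters held 3 calls in spleen and 0 in mLN, beside 1.30% and 0.641% of all genes tested. Myc was lower in KO than in WT spleen, at 49.8 ± 10.7 against 98.2 ± 25.3 CPM (SD, n = 4; log2 -0.98, edgeR adjusted p = 0.0453), while its partner Max was higher at 0.31 (adjusted p = 0.0453). These were 2 of the 14 tested of 15 regulators of transporter and stress-response genes. Bckdk, the kinase that holds back branched-chain amino acid breakdown, fell by 0.52 in KO spleen (adjusted p = 0.0444) and was 1 of 27 genes of amino acid use. For 29 genes of lysosomal amino acid sensing, 11 tested targets of ATF4, 20 cytosolic tRNA synthetases and 14 cell cycle genes 0 were called in either organ. At an unadjusted p under 0.05 these lists held 12, 2, 3 and 1 genes in spleen, beside 20.5% of all genes tested. In mLN they held 6, 1, 2 and 8 genes, beside 15.7%. In spleen DESeq2 called 2 (Fnip1 and Sesn2), 1 (Stc2), 1 (Vars) and 0, of 784 genes called in all. In mLN it called 3 (Lamtor3, Sesn2 and Sesn3), 1 (Stc2), 1 (Vars) and 4 (Mcm5, Rrm2, Top2a and Tyms), of 563. The smallest p of each list in KO against WT spleen belonged to Sesn2, a leucine sensor, at 0.92 (log2, edgeR adjusted p = 0.0566), Stc2, which encodes stanniocalcin 2, at -1.315 (0.402-fold, adjusted p = 0.0776), Vars, the valine synthetase, at -0.57 (adjusted p = 0.0646) and Ccna2, which encodes cyclin A2, at -0.41 (adjusted p = 0.128). In mLN it belonged to Lamtor3 of the platform that recruits mTORC1, at 0.40 (log2, edgeR adjusted p = 0.0929), to Stc2 at -1.17 (0.443-fold, adjusted p = 0.137), to Vars at -0.62 (adjusted p = 0.122) and to Mcm5, of the replicative helicase, at 0.56 (adjusted p = 0.077). The regulators and the genes of amino acid use had 0 calls in mLN by edgeR. They held 4 and 7 genes at an unadjusted p under 0.05 there, beside 15.7% of all genes tested, and DESeq2 called 4 (Cebpg, Max, Mlxip and Myc) and 0, of 563 genes in all. In spleen DESeq2 called 3 regulators (Max, Mlx and Myc) and 1 gene of amino acid use (Bckdk), of 784 in all. Between KO and WT mLN, Mlxip was at -0.65 (log2, edgeR adjusted p = 0.0565) and the glutamate dehydrogenase gene Glud1 at -0.29 (adjusted p = 0.179). Beside these counts, the erythroid markers summed to 98.4 to 1933 CPM in WT and 45.2 to 114 CPM in KO spleen, and the part of other cells was not tested.

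Between the organs the regulators were called most often of these lists except for the cell cycle genes in KO cells. They were called in 6 of the 14 tested in each genotype, beside 20.5% of all genes tested in WT and 25.3% in KO cells. In WT cells Max fell in mLN by 1.28 (log2, adjusted p = 0.000257), and Nfe2l2 (NRF2), Cebpg and Myc were among the 4 that rose, Myc from 98.2 ± 25.3 to 187 ± 47.8 CPM (adjusted p = 0.0198). In KO cells Max fell by 1.07 (adjusted p = 6.72e-06), Cebpg rose by 1.40 (adjusted p = 3.69e-05) and Nfe2l2 rose by 0.52 (adjusted p = 0.00106), and 3 of the regulators rose and 3 fell. Of the genes of lysosomal sensing, 4 rose and 2 fell in WT and 3 rose and 3 fell in KO cells. At 21.4% of those tested in WT and 20.7% in KO cells, they were called about as often as genes in general. Depdc5, part of a complex that holds mTORC1 back when amino acids are low, fell in both genotypes (-0.53 in WT and -0.57 in KO), and Lamtor5 and Rraga, parts of the platform that recruits mTORC1, rose in both (Lamtor5 at 0.46 and 0.34, Rraga at 0.39 and 0.42). Sesn3, of the sestrins, fell in KO cells (-0.47).

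Of the 20 tRNA synthetases, 4 rose and 2 fell in WT mLN against spleen and 5 rose and 1 fell in KO cells. That was 30.0% of them in each genotype, beside 20.5% of all genes tested in WT and 25.3% in KO cells. Eprs, for glutamate and proline, rose in both (0.51 in WT and 0.51 in KO), and Vars, for valine, fell in both (-0.96 and -1.03). Farsb, for phenylalanine, rose in both (0.37 and 0.31), and Qars, for glutamine, rose in KO cells (0.375). Among the 27 genes of amino acid use, 5 rose and 1 fell in WT cells, with Ass1 of arginine synthesis at 0.43, Bckdha of branched-chain breakdown at 0.52 and Oat of ornithine metabolism at 0.37, and 1 rose and 1 fell in KO cells (Oat at 0.33 and the glutamine synthetase gene Glul at -0.61). This list was called at 22.2% in WT, about as often as genes in general, and at 7.41% in KO cells, less often. Of the 11 tested ATF4 targets 1 rose and 1 fell in WT (Psph and Aldh18a1) and 2 rose and 1 fell in KO cells (Shmt2, Psph and Ddit4). At 18.2% in WT and 27.3% in KO cells, they were called about as often as genes in general. Of the 14 cell cycle genes, 1 rose in WT mLN (Birc5, by 0.71) and 7 rose in KO mLN, by 0.45 to 0.89, of which Birc5 (0.89), Ccnb2 (0.63) and Tyms (0.45) had the smallest p-values. By the interaction test 0 genes of these lists were called by edgeR, beside 0% of 15438 genes, and DESeq2 called 0. At an unadjusted p under 0.05 there were 6 of the 14 cell cycle genes, beside 4.22% of all genes tested, and at most 2 genes in each other list. Of the 14 cell cycle genes 13 had a positive estimate, with a median of 0.41 (log2), beside -0.005 over all genes tested.

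**Figure D5:**
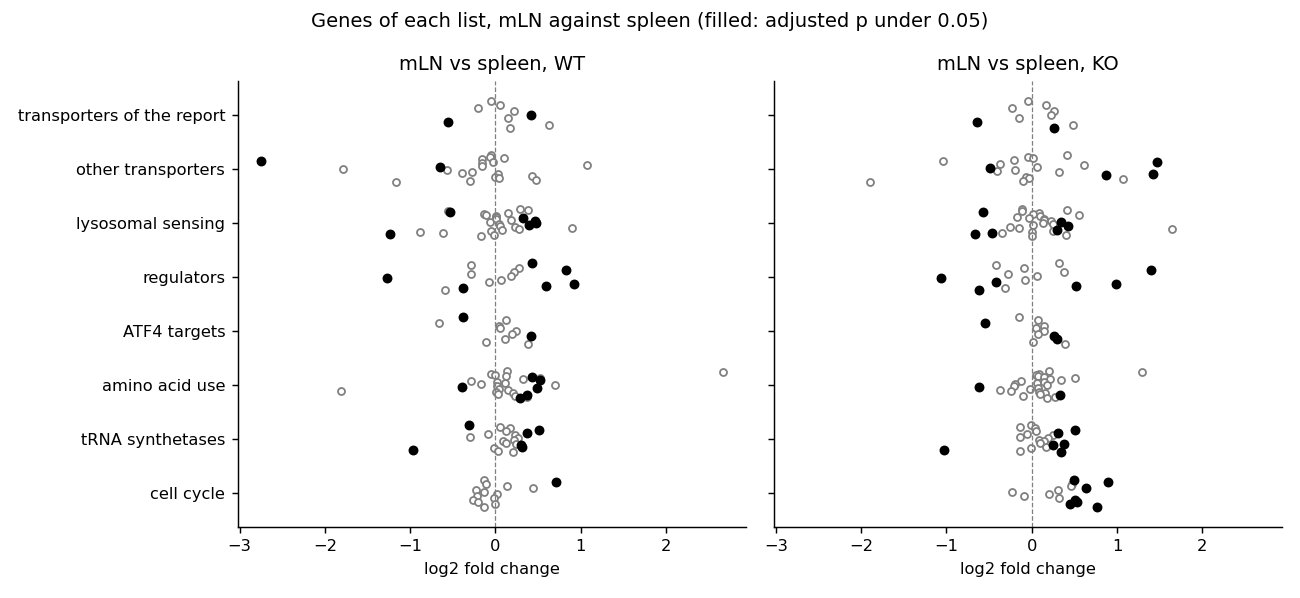
log2 fold change of mLN against spleen in WT (left) and KO cells (right) for the 9 transporters and the genes of 7 other lists; filled points passed an edgeR adjusted p of 0.05. The 9 transporters stay between -0.64 and 0.63, and the regulators reach from -1.28 to 1.40.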

How the data were processed

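RNA of sorted CD4+ T cells was sequenced as single-end reads of 75 bases (NEBNext Single Cell/Low Input kit). The authors aligned the reads with STAR 2.6.1a to GRCm38 with GENCODE M23, and they deposited the whole-number count of reads per gene for each sample, without normalization. The submitters' processing notes also name RSEM, bcl2fastq 2.19.1.403 and DESeq2 1.22.2. Whether the counts use strand is not given in the sources used here. Depth was 9363940 to 11283439 reads on genes per sample, which limits the genes with few reads, above all Slc7a5.

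Symbols, coordinates and exon lengths came from GENCODE M21 on GRCm38 (55240 of 55421 genes found), and promoters from RefSeq (GRCm38.p6). Counts were tested with edgeR 4.0.16 in R 4.3.3 (filterByExpr, TMM, quasi-likelihood test), over the 2 groups compared or, for the interaction, over all 15 samples. Adjusted p-values are Benjamini-Hochberg values over every gene of a fit, genes were called at an adjusted p under 0.05, and 95% intervals come from the same fits. The tests measure the spread between samples, and the labels do not say that each is a separate mouse. Fits were tested on simulated data with 100 changed genes at each size of change, drawn from all genes tested. At a log2 change of 0.5 edgeR called 29% of them for KO against WT in spleen and 11% in mLN. For mLN against spleen it called 7% in WT and 32% in KO cells, and for the interaction 4%. At a log2 change of 1 these were 66%, 44%, 53%, 60% and 42%, so most changes of 0.5 would be missed. Alternatives were DESeq2 1.42.0, scaling by RLE, leaving out the filter on low counts, a minimum of 10 counts per sample, the replicate block, 1 fit of all 15 samples, and each sample left out. Tables were made with pandas 2.3.3 and numpy 2.4.6 in Python 3.11.15, and figures with matplotlib 3.10.9.

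The pairing by replicate number was checked by the correlation over 15438 genes of deviations from the group means. For WT spleen and mLN it was 0.259, 0.244 and 0.293 for the 3 shared numbers, against -0.199 to 0.035 for different numbers. The numbers were therefore taken to pair these samples. The main organ fits and the main interaction fit did not use this pairing, which entered only through the replicate block. For KO spleen and mLN it was 0.029 to 0.263 for the 4 shared numbers, against -0.179 to 0.114 for different numbers. These ranges overlap, so whether the numbers pair KO samples is not settled. For shared numbers it was -0.21 to 0.144 for WT and KO spleen and -0.056 to 0.005 for WT and KO mLN, where the numbers were not taken to pair samples.

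The 9 genes and the lists around them were chosen with earlier results of these data known. From each list up to 3 called genes of smallest p per comparison were named, or, between the genotypes, the gene of smallest p where none was called. A result that this rule would name is not reported here. Values given for the same gene in the other genotype, Myc between the organs, the genes named for DESeq2 and the search for GC boxes were chosen after the data were seen.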

Additional observations from a re-analysis of the deposited data

Results flagged for a closer look

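Slc38a1 in KO spleen replicate 3 was at 207.87 CPM, apart from the other 3 samples of its group, which lay between 228.48 and 232.34 CPM. The gap to the nearest sample was 0.842 of the range of the group, past the 95% limit of Dixon's test. Chance passes this limit in about 1 of 20 groups, and this was 1 of 27 groups of 4 samples looked at (9 genes in 3 groups). It was just below the lowest Slc38a1 value in WT spleen, 208.4 CPM. The erythroid and myeloid marker sums of the same sample were 114 and 611 CPM, the highest of the KO spleen samples.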

How the results depend on the processing

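The number of transporters called stayed at 0 of 9 for KO against WT in both organs and for the interaction under every alternative. For mLN against spleen it was 2 in WT (1 to 2 with a sample left out, 3 with the replicate block and 3 without the filter on low counts) and 2 in KO cells (0 to 4 with a sample left out, the 0 without spleen replicate 1), and in KO cells 1 without the filter, 3 with RLE scaling and 4 with all 15 samples in 1 fit. Among the alternatives that keep all samples, 255 differences of single transporters stayed on their side of the threshold, 5 newly passed it and 1 lost it. Counts over all genes moved far more. In spleen 185 genes were called for KO against WT, but 784 by DESeq2, 1422 without the filter, 17 with the replicate block, 85 in 1 fit and 12 to 324 with a sample left out. In mLN there were 92, but 563 by DESeq2, 913 without the filter, 1 with the block, 500 in 1 fit and 4 to 117 with a sample left out. The interaction had 0, but 2 by DESeq2, 112 without the filter and 3 with the block. For mLN against spleen 2980 genes were called in WT (1816 to 2780 with a sample left out, 4351 with the block) and 3602 in KO cells (2631 to 3669, 3814 with the block). The cause of these moves was not tested.

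Directions turned when 1 sample was left out, always for small differences that were not called. The ranges over samples left out were, on the log2 scale, -0.16 to 0.13 (Slc7a5), -0.012 to 0.12 (Slc3a2), -0.035 to 0.059 (Slc1a5) and -0.10 to 0.014 (Slc43a2) for KO against WT spleen, -0.039 to 0.27 for Slc43a2 between organs in WT, -0.077 to 0.018 for Slc1a5 between organs in KO cells, and -0.37 to 0.046 (Slc7a5), -0.017 to 0.081 (Slc1a5), -0.17 to 0.092 (Slc38a2), -0.22 to 0.064 (Slc7a1) and -0.012 to 0.20 (Slc7a6) for the interaction. The block changed no call of the 9 other than Slc7a5 in WT cells.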
